A study of Mus musculus with 16 samples.

Results

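Interferon-stimulated genes are switched on when a cell senses foreign or misplaced nucleic acid or receives an interferon signal. The set described here holds 39 such genes, listed by name: RNA sensors, transcription factors of the interferon response, oligoadenylate synthetases, Ifit proteins, antiviral GTPases, the Isg15 system and other effectors. Antigen presentation genes were left out of the list. All 39 were found in the mouse gene counts, where 55536 genes are listed, and all 39 passed the filter on low counts together with 15316 genes in all, so that no member was left untested.

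The cells were one mouse inner medullary collecting duct cell line, a model of the innermost part of the kidney's collecting duct, carrying a doxycycline (DOX) inducible knockout of Pkd2. Pkd2 encodes polycystin-2, the cation channel that is mutated in some families with polycystic kidney disease. There were 4 groups of 4 libraries: passage 7 with DOX (labelled Pkd2KO), passage 7 without DOX (labelled wild type), passage 4 with DOX (labelled Pkd2KO) and passage 4 without DOX (labelled wild type). Cells of every group grew on filters for 10 days, and DOX was given at 2 ug/mL over 6 days. The sample titles call the cells of all 4 groups Pkd2KO cells. No cells without the inducible knockout received DOX, so an effect of DOX itself and of the loss of Pkd2 cannot be told apart. The labels do not say that replicates came from separate cultures, so p-values measure the spread between these libraries, which may be technical.

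Poly(A) RNA was sequenced, and the deposited gene counts summed to between 9937504 and 17188295 a library. Pkd2 had 47.6 to 65.9 CPM (counts scaled to a common library size) in passage 7 DOX libraries, against 184 to 187 CPM without DOX, and 47.8 to 57.4 CPM in passage 4 DOX libraries, against 135 to 145 CPM without DOX. The headers of the deposited TPM columns did not match those of the counts: 12 of the 16 TPM columns followed a count column of another group. The count headers were used throughout. Pkd2 was low in the count columns headed DOX, and no gene checked their passage headings independently, so each passage result rests on those headings. Under the TPM headings most calls given here were absent. With DOX at passage 7, 0 members were higher and 2 lower, and with DOX 1 was lower at passage 7 than at passage 4. By the count columns they followed, TPM columns headed DOX and no DOX at one passage shared a treatment. They set replicates 3 and 4 against replicates 1 and 2. TPM columns headed passage 7 and passage 4 set DOX against no DOX. The calls under the TPM headings therefore could not test the DOX or passage results. Aqp2, the water channel that defines principal cells of the collecting duct, had 0 counts in all 16 libraries. Scnn1a, a sodium channel subunit of the same cells, had 88.0 to 226 CPM, the highest of the 7 principal cell markers looked for. The others were low: Scnn1b, another subunit of that channel, had 0.264 to 3.81 CPM and Avpr2 had 0.158 to 2.19 CPM. Hsd11b2 had 5.55 to 17.5 CPM, Gata3 had 3.44 to 10.99 CPM and Aqp3 had 0 to 6 counts a library. The epithelial cadherin Cdh1 had 514 to 743 CPM. The libraries also fell into sets by replicate number: replicates 3 and 4 differed from replicates 1 and 2 in every group, by a chi-square per degree of freedom of 10.4 to 19.0, against 1.87 to 4.65 between the libraries of one set. The labels do not say what the replicate numbers stand for. Results are therefore given with and without the replicate number held constant wherever that changed a count of genes by more than 1.5 times.

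Type I interferons bind a receptor made of Ifnar1 and Ifnar2, whose kinases Jak1 and Tyk2 phosphorylate factors such as Stat2. With Irf9, Stat2 takes part in a complex that binds interferon-stimulated response elements (ISRE) in promoters, while interferon gamma acts at gamma-activated sites (GAS). Many of the induced proteins are themselves sensors or factors of the response, so part of the set feeds back on its own expression.

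Because many members were called in the same direction with passage, their promoters were read from RefSeq (build GRCm38.p6, 250 bases before to 50 bases after each annotated start). Of the 39 members, 30 had an entry. The ISRE core was searched on both strands as 2 copies of GAAA with any 2 bases between them (on the other strand, 2 copies of TTTC). It was present in 16 of these 30 genes (53.3%), against 3.99% of the 27025 genes with a promoter entry and 3.44% of the 32851 windows. The GAS letters TTCNNNGAA, which read alike on both strands, were present in 10 of the 30 (33.3%), against 9.55% of all genes and 8.30% of windows, and 5 members held both. Overlapping matches of one motif were each counted, and matches of the 2 motifs may share bases, as in Bst2. A match is a description of the letters only. The members were listed as interferon-stimulated genes, so their share of ISRE says nothing about passage. The 16 genes with an ISRE core had a median log2 fold change with passage of -0.935 with DOX and -0.474 without. The 14 genes without one had -0.555 and -0.263. For GAS the order was the other way, with -0.604 and -0.356 in the 10 genes with it, against -0.905 and -0.407 in the other 20. These differences were not tested. The 4 promoters below belong to the members that the results return to most: Oasl1, which went its own way, Ifit3, which fell with DOX, Isg15, which fell with passage, and Gbp2, which separated the replicate sets. Capitals mark the ISRE core in either orientation.
Oasl1: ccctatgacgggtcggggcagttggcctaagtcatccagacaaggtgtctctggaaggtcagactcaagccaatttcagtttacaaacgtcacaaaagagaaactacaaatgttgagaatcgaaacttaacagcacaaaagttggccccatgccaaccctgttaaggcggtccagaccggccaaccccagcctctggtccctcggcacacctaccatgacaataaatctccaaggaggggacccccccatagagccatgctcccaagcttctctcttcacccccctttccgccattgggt
Ifit3: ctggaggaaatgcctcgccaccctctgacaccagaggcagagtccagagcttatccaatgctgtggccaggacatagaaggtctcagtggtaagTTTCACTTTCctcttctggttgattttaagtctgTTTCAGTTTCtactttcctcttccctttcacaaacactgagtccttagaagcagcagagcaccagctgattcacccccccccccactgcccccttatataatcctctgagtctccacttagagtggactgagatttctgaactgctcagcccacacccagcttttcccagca
Isg15: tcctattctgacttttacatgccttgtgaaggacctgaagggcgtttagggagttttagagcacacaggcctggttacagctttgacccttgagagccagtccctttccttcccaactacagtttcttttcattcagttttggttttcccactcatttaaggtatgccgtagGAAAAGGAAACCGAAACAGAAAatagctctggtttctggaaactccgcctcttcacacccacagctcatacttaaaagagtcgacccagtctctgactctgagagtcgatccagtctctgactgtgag
Gbp2: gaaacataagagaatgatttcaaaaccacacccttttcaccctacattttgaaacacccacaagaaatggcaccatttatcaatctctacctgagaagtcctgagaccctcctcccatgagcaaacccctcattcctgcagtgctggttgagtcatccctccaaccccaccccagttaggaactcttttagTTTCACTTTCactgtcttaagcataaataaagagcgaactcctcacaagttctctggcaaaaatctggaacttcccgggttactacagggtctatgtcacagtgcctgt
These windows lie at chr5:114922990-114923289 on the plus strand for Oasl1, chr19:34583279-34583578 on the plus strand for Ifit3, chr4:156200769-156201068 on the minus strand for Isg15 and chr3:142620413-142620712 on the plus strand for Gbp2. The Isg15 window holds 3 overlapping cores, the Ifit3 window 2 separate ones and the Gbp2 window 1, and the Oasl1 window holds neither the ISRE core nor the GAS letters.

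In levels per kilobase of exon, averaged over the 16 libraries, the members covered most of the range of tested genes. Igtp, an interferon-inducible GTPase that acts on the vacuoles of intracellular pathogens, stood highest at 218.7 CPM per kilobase, above 99% of tested genes. It was followed by Bst2 (tetherin, which holds budding virus on the cell surface) at 188 CPM per kilobase, Ifit3 at 176.3 CPM per kilobase, Gbp2 at 168.3 CPM per kilobase and Irgm1 at 153 CPM per kilobase. The Mx GTPases stood lowest, with Mx2 at 0.93 and Mx1 at 0.27 CPM per kilobase. Mx1 was covered by 5 to 32 counts a library and Mx2, annotated as a polymorphic pseudogene, by 18 to 68 counts, so that even large changes in them would be hard to detect. Annotated genes overlap 15 of the members, on the opposite strand in 11 cases, and whether the counting used strand is not stated. The interferon genes themselves were all but absent: of 8 ligand genes looked for, Ifna2, Ifna4, Ifng, Ifnl2 and Ifnl3 had 0 counts in every library, Ifnb1 had 4 counts over all 16 libraries, and Ifnk and Ifne had 1 each. A count of 0 allows up to 3 counts, which came to 0.175 to 0.302 CPM in these libraries, and such floors cover counting error only.

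**Figure D1:**
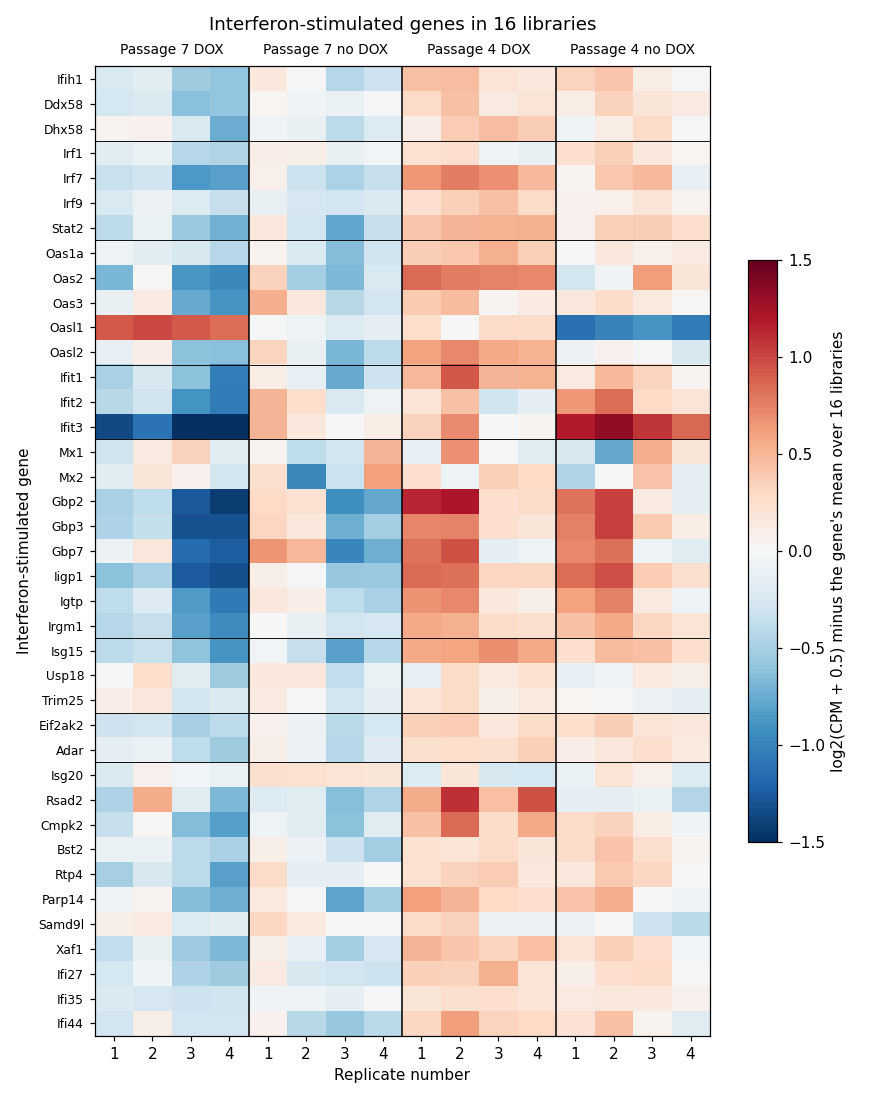
Level of each interferon-stimulated gene (down the page, by role) in each of the 16 libraries (across), as log2(CPM + 0.5) minus that gene's mean over all libraries, with the colours limited to -1.5 and 1.5. Red is above and blue below the gene's mean; 31 of the 39 genes have their highest group mean at passage 4 with DOX, while Oasl1 is highest at passage 7 with DOX and Ifit3 at passage 4 without DOX.

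Most members had the same highest and the same lowest group. The mean CPM was highest in passage 4 DOX cells for 31 of the 39 members, against 23.4% of all tested genes, and lowest in passage 7 DOX cells for 30 of 39, against 30.6% of all tested genes. Both held for 24 members, against 7.65% of tested genes. Fewer cells expressing a gene and less RNA per cell cannot be told apart in such bulk libraries.

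At passage 7, DOX-treated cells had lower levels of 8 of the 39 members and a higher level of 1 than untreated cells at an adjusted p under 0.05 (edgeR, adjusted over all tested genes). Called lower were the RNA sensor Ddx58 (RIG-I), the transcription factor Irf1, Ifit2 and Ifit3, the GTPase Irgm1, the exonuclease Isg20, Rtp4 and Ifi35, and called higher was Oasl1. Irf1, a factor that drives many of the other members, had a log2 fold change of -0.29 (adjusted p = 0.0407) and Isg20 had -0.29 (adjusted p = 0.0413). All 4 DOX libraries lay below all 4 others for 7 of the 39 members, against 12.8% of all tested genes, and above them for 1, against 12.4%. The members called lower were 20.5% of the list, against 11.6% of all tested genes, and the 1 called higher was 2.56%, against 11.1%. The median log2 fold change over the list was -0.199, against -0.00784 over all tested genes. With the replicate number as a block, 16 of the 39 members were called lower, against 16.5% of all tested genes, and 1 higher, against 15.3%. The block added Ifih1, Gbp2, Gbp3, Gbp7, Iigp1, Igtp, Eif2ak2 and Samd9l to the members called lower. Fits that left out 1 library called 4 to 10 members lower: 4 without DOX replicate 3 or without replicate 1 of the cells without DOX, and 5 without DOX replicate 4 or without replicate 2 of the cells without DOX, all of passage 7.

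Ifit3 fell furthest. It had 97.4, 116, 75.7 and 56.4 CPM in the passage 7 DOX libraries, against 357, 279, 250.5 and 271 CPM in the passage 7 libraries without DOX. Every DOX library lay far below every library without DOX. The log2 fold change was -1.75 (SE 0.22, edgeR adjusted p = 4.96e-05). The near-identical neighbour Ifit3b, examined after its values were seen, had a log2 fold change of -2.05 (SE 0.25, adjusted p = 4.75e-05), and reads could be split between these copies. Ifit2 of the same family, which inhibits translation, averaged 68.9 ± 17.1 CPM with DOX and 118 ± 27.3 CPM without (SD, n = 4 each), a log2 fold change of -0.78 (SE 0.23, adjusted p = 0.0225). Ifit1 had a log2 fold change of -0.35 and did not pass the test (adjusted p = 0.223).

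Among the sensors, Ddx58 detects the ends of short double-stranded RNA and signals through Mavs. It had 79.4, 81.8, 61.3 and 62.9 CPM with DOX, against 97.2, 92.0, 88.6 and 94.2 CPM without DOX at passage 7, and the groups did not overlap. The log2 fold change of Ddx58 was -0.38 (SE 0.09, adjusted p = 0.00489). The related helicase Ifih1 (MDA5), a sensor of long double-stranded RNA, had -0.25 (adjusted p = 0.226, and 0.00306 with the replicate block), and Dhx58 (LGP2), which modulates both, had -0.01 (adjusted p = 0.982).

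Irgm1, a GTPase that controls the other members of its family, had 632, 669, 484 and 441 CPM with DOX, against 852, 787, 702 and 713 CPM without DOX. All 4 DOX libraries lay below the 4 others. The log2 fold change of Irgm1 was -0.46 (SE 0.13, adjusted p = 0.015), and the call was lost without DOX replicate 3 (adjusted p = 0.0559) or without replicate 1 of the cells without DOX (adjusted p = 0.0502). Rtp4, a protein that binds viral RNA in mammals, had 37.2, 44.3, 40.0 and 29.6 CPM with DOX, against 64.1, 47.8, 47.4 and 51.8 CPM without, again with no overlap. Rtp4 changed by a log2 fold change of -0.48 (SE 0.12, adjusted p = 0.00698). Ifi35, a regulator of innate signalling, had 40.1, 39.1, 37.6 and 38.0 CPM with DOX, against 44.6, 44.6, 42.6 and 45.7 CPM without DOX. This was a small shift that still separated all the libraries, of -0.20 (SE 0.05, adjusted p = 0.0093).

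Oasl1 went the other way. In mice, its product blocks translation of Irf7 messenger RNA and has no oligoadenylate synthetase activity. It had 166, 174, 166 and 156 CPM in passage 7 DOX libraries, against 86.3, 82.4, 75.3 and 79.0 CPM in those without DOX, and 105, 87.8, 107 and 106 CPM in passage 4 DOX libraries, against 39.8, 43.3, 46.9 and 41.8 CPM without DOX. The DOX libraries lay above the others at each passage, without overlap. The log2 fold changes were 1.03 at passage 7 (SE 0.07, adjusted p = 5.25e-09) and 1.23 at passage 4 (SE 0.07, adjusted p = 1.26e-09). Oasl1 (ENSMUSG00000041827, chromosome 5, 114923240 to 114937915, plus strand) lies beside Oasl2 (114896936 to 114912234), and the annotation places an antisense gene with 105 counts over it.

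At passage 4 more members were called higher than lower. DOX-treated cells had higher levels of 5 members (12.8% of the list, against 8.45% of all tested genes) and a lower level of 1 (2.56%, against 9.1%). Oasl1, Oasl2, Oas1a, Rsad2 and Irf9 were called higher and Ifit3 lower. The median log2 fold change over the list was 0.202, against 0.000585 over all tested genes, and 32 of the 39 values were positive. All 4 DOX libraries lay above all 4 others for 11 of the 39 members, against 10.3% of all tested genes, and below them for 1, against 11%. With the replicate number as a block, 10 of the 39 members were called higher, against 13.3% of all tested genes, and 3 lower, against 14%. It added Irf7, Gbp2, Trim25, Cmpk2 and Samd9l to the members called higher, and Irf1 and Ifit2 to those called lower. The count of higher members was 3 when DOX replicate 1, 2 or 3, or replicate 1 or 4 of the cells without DOX, all of passage 4, was left out.

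Rsad2 (viperin, which makes a chain-terminating nucleotide) had 40.1, 58.1, 37.1 and 53.0 CPM in passage 4 DOX libraries, against 24.4, 24.2, 25.2 and 19.7 CPM in those without DOX. All 4 DOX libraries lay above the others. This was a log2 fold change of 1.01 (SE 0.23, adjusted p = 0.00522). At passage 7 it had 19.5, 39.8, 24.1 and 16.7 CPM with DOX, against 23.3, 23.7, 17.1 and 19.7 CPM without DOX, values that overlapped and did not pass the test (0.25, SE 0.23, adjusted p = 0.494).

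Of the 5 oligoadenylate synthetase genes, whose active products make the messenger that switches on RNase L, 3 were called higher at passage 4. Oasl2, an active member in mice, had 245, 264, 238 and 232 CPM with DOX, against 151, 168, 159 and 136 CPM without DOX. Oas1a had 29.2, 30.0, 32.7 and 29.0 CPM with DOX, against 22.2, 25.3, 23.7 and 24.8 CPM without DOX. Neither gene's groups overlapped. The log2 fold change was 0.67 for Oasl2 (SE 0.19, adjusted p = 0.0268) and 0.33 for Oas1a (SE 0.11, adjusted p = 0.0471). The call on Oas1a was lost in 12 of the 16 fits that left out 1 library, among them each of the 8 passage 4 libraries, with an adjusted p of up to 0.123. The other 4 were passage 7 libraries, DOX replicates 2 and 3 and replicates 2 and 4 of the cells without DOX. The call on Oasl2 was lost without DOX replicate 1, 2 or 3 or without replicate 1, 3 or 4 of the cells without DOX, all of passage 4, with an adjusted p of up to 0.0717. Oas1a has close copies in its cluster on chromosome 5, one of which, Oas1g, had a log2 fold change of 0.66 (adjusted p = 0.00426). Oas2 had 0.62 (adjusted p = 0.09) and Oas3 0.12 (adjusted p = 0.792).

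Irf9, the DNA-binding partner of Stat2, had 102, 109, 116 and 104 CPM in passage 4 DOX libraries, against 89.2, 89.9, 97.3 and 88.1 CPM without DOX. Every DOX library was above every other library. The shift was 0.24 (SE 0.06, adjusted p = 0.011). Irf9 overlaps Rnf31 on the same strand, which had 11424 counts in all, so that some reads could belong to either. Irf7, the factor that amplifies interferon production, had 0.43 with no overlap between the groups but did not pass the test (adjusted p = 0.0745, and 0.0498 with the replicate block). Ifit3 had 319, 409, 251 and 257 CPM with DOX at passage 4, against 573, 629, 525 and 457 CPM without DOX. It was again lower in all 4 DOX libraries, with a log2 fold change of -0.82 (SE 0.21, adjusted p = 0.0136).

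Oasl1 was the only member called higher with DOX at both passages, 100% of the 1 call at passage 7 and 20% of the 5 at passage 4, while 5.05% of all tested genes were higher at both. Without the replicate block, Ifit3 was the only member called lower at both. This was 12.5% of the 8 calls at passage 7 and 100% of the 1 at passage 4. Of all tested genes, 6.08% were lower at both. With the replicate number as a block, Irf1 and Ifit2 were called lower at both passages as well. Without the block, no member was called in opposite directions at the 2 passages, against 0.104% of all tested genes. With it, Gbp2 was called higher at passage 4 (0.27, edgeR adjusted p = 0.00227) and lower at passage 7 (-0.60, adjusted p = 1.69e-07). Samd9l was likewise called higher at passage 4 (0.31, adjusted p = 3.46e-05) and lower at passage 7 (-0.155, adjusted p = 0.0166). Shares of all tested genes called at both passages were not computed with the block.

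**Figure D2:**
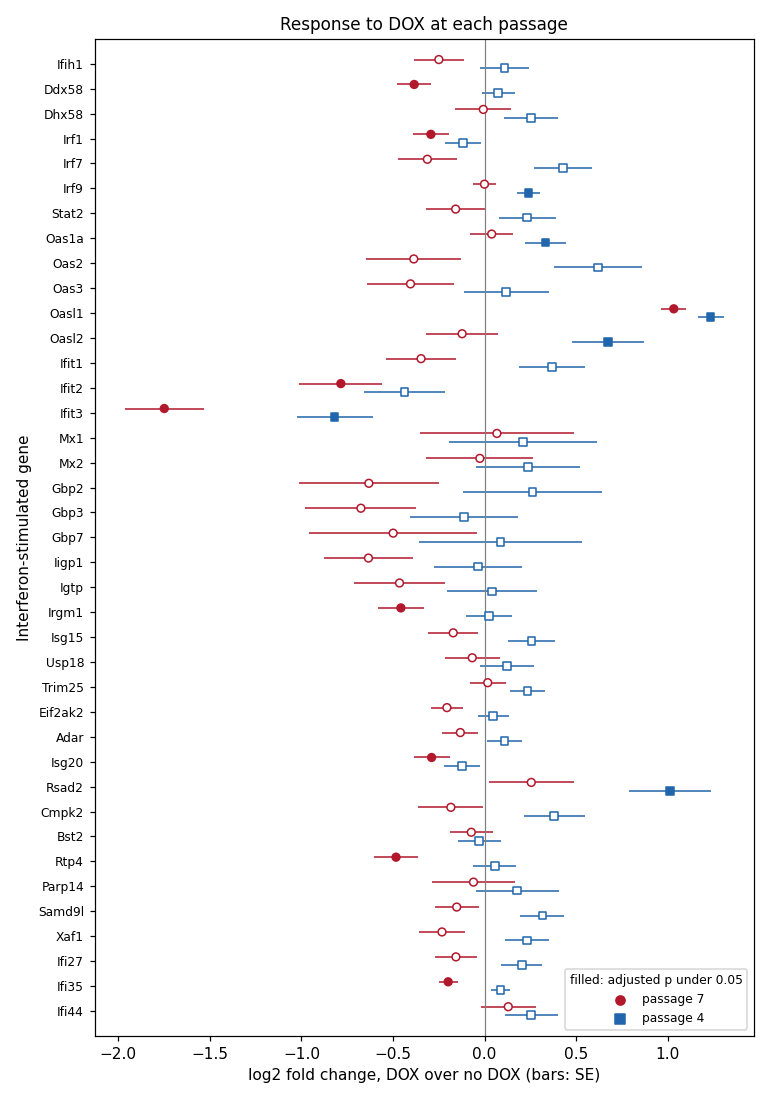
Log2 fold change with DOX for each member, at passage 7 and at passage 4, with bars of 1 SE on each side and filled symbols for an adjusted p under 0.05. The passage 7 point lies left of the passage 4 point for all 39 members.

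The DOX response itself was more negative at passage 7 than at passage 4 for all 39 members, against 50.3% of all tested genes, with a median difference of -0.391 on the log2 scale and a range of -1.01 to -0.04. In the test of the difference, edgeR called 0 members higher and 0 lower after adjustment, against 0.516% and 0.679% of all tested genes. At an unadjusted p under 0.05, 16 members were lower and 0 higher, against 6.18% and 5.36% of all tested genes, and the smallest adjusted p was 0.0649, for Ifi35. DESeq2 called 3 members lower, against 1.46% of all tested genes, and limma-voom 0. With the replicate number as a block, 13 of the 39 members were called lower and 0 higher, against 2.79% of all tested genes called lower. The same test in replicates 1 and 2 alone called 9 members lower, against 3.18% of all tested genes. In replicates 3 and 4 alone it called 14, against 2.08%. In each set alone the difference was negative for 38 of the 39 members.

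The 13 members were Ifih1 and Ddx58 among the sensors, Ifit2 and Ifit3, the GTPases Gbp2, Gbp3, Iigp1, Igtp and Irgm1, and the effectors Cmpk2, Rtp4, Samd9l and Ifi35. Gbp2, a guanylate-binding protein that coats bacteria and vacuoles, differed most clearly. It had 262, 282, 152 and 136 CPM in passage 7 DOX libraries, against 449.6, 428, 194 and 215 CPM without DOX, and 807, 846, 437 and 448 CPM in passage 4 DOX libraries, against 642, 743, 401 and 330.3 CPM without DOX. Within each replicate set, both DOX libraries lay below both untreated libraries at passage 7 and above both at passage 4. The blocked difference between the passages' responses was -0.87 on the log2 scale (SE 0.09, adjusted p = 3.81e-06). For Iigp1 it was -0.62 (SE 0.07, adjusted p = 1.4e-05), for Igtp -0.52 (SE 0.07, adjusted p = 3.49e-05) and for Samd9l -0.47 (SE 0.07, adjusted p = 0.000191). Without the block, Gbp2 had -0.89 (SE 0.54, adjusted p = 0.586), while with only the 2 replicate sets held constant it had -0.86 (adjusted p = 1.39e-06).

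Markers of leukocytes, cells with strong interferon responses, also moved with DOX. The 8 markers looked for summed to 36.1 to 43.7 CPM in passage 7 DOX libraries, against 67.1 to 75.2 CPM without DOX, and to 20.1 to 35.6 CPM in passage 4 DOX libraries, against 39.0 to 46.9 CPM without DOX. Adgre1 and Itgam, which define macrophages and myeloid cells, had 0 counts in every library. The 3 markers that could be tested, Ptprc, Cd68 and Csf1r, were lower with DOX at both passages. At passage 7 Ptprc was lower, and Cd68 and Csf1r higher, than at passage 4, with and without DOX. Their part in the members' values was not tested.

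More members were called between passages than between DOX-treated and untreated cells. With DOX, passage 7 cells had lower levels of 30 members than passage 4 cells (76.9% of the list, against 15.8% of all tested genes) and a higher level of 1 (2.56%, against 18.3%). Without DOX, 15 members were lower (38.5%, against 11.3%) and 1 higher (2.56%, against 14.3%). The passage 7 libraries lay wholly below those of passage 4 for 27 members with DOX, against 14.9% of all tested genes, and for 10 without DOX, against 12.3%, and wholly above for 1 member in each case, against 17.5% and 14.6%. The median log2 fold change was -0.703 with DOX and -0.352 without, against -0.00813 and -0.00676 over all tested genes. With the replicate number as a block, the counts without DOX were 26 lower, against 17.4% of all tested genes, and 3 higher, against 19.6%. Leaving out 1 library of the untreated cells gave 8 members lower without passage 4 replicate 2, 9 without passage 7 replicate 3 and 7 without passage 7 replicate 4. All 15 members called lower without DOX were among the 30 called lower with DOX, 100% of the first list and 50% of the second. The second list alone held 76.9% of the members, and the share of all tested genes lower in both was not computed. The 2 passage comparisons share no libraries with each other, but each shares its groups with the DOX comparisons.

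With DOX the fall took in all 3 sensors, all 4 transcription factors, all 3 Ifit genes, both double-stranded RNA enzymes, 9 of the 11 other effectors and 5 of the 8 GTPases, and 1 of the 3 genes of the Isg15 system. Of the 5 oligoadenylate synthetase genes 3 were lower and 1, Oasl1, higher. Without DOX it took in 0 of the 3 sensors, 3 of the 4 transcription factors, 1 of the 3 Ifit genes, both double-stranded RNA enzymes, 5 of the 11 other effectors, 2 of the 8 GTPases and 1 of the 3 genes of the Isg15 system, and of the oligoadenylate synthetase genes 1 was lower and 1 higher. The sensors Ifih1 and Ddx58 were lower without DOX as well when the replicate number was a block. Isg15, the ubiquitin-like modifier that gives the system its name, had 24.2, 25.3, 20.8 and 17.1 CPM in passage 7 DOX libraries, against 47.8, 48.7, 52.4 and 47.9 CPM in passage 4 DOX libraries, and 31.2, 25.1, 18.0 and 23.8 CPM in passage 7 libraries without DOX, against 38.1, 44.7, 43.6 and 38.1 CPM at passage 4. Neither pair of groups overlapped. The log2 fold change was -1.17 with DOX (SE 0.13, adjusted p = 3.29e-06) and -0.75 without (SE 0.13, adjusted p = 0.000525). Usp18, which removes Isg15 from proteins and restrains the receptor, had -0.23 with DOX (adjusted p = 0.25) and -0.04 without (adjusted p = 0.886).

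Eif2ak2 (PKR), the kinase that stops translation on sensing double-stranded RNA, had 72.4, 74.3, 63.3 and 68.2 CPM in passage 7 DOX libraries, against 115, 117, 99.9 and 109 CPM in passage 4 DOX libraries. Without DOX it had 93.6, 84.7, 67.7 and 74.4 CPM at passage 7, against 107, 116, 102 and 101 CPM at passage 4. It was lower in every passage 7 library, with a log2 fold change of -0.67 with DOX (SE 0.09, adjusted p = 1.13e-05) and -0.41 without DOX (SE 0.09, adjusted p = 0.00171). Adar, which edits double-stranded RNA and so hides it from the sensors, had -0.56 with DOX (adjusted p = 0.000283) and -0.31 without (adjusted p = 0.0241).

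Irf9, given above for passage 4, had 72.4, 80.3, 73.6 and 67.0 CPM at passage 7 with DOX and 78.7, 71.6, 69.6 and 73.4 CPM without DOX, all below the passage 4 libraries of the same treatment. The log2 fold change with passage was -0.55 with DOX (SE 0.06, adjusted p = 2.73e-06) and -0.31 without (SE 0.06, adjusted p = 0.00139). Ifi35 had -0.50 with DOX (SE 0.05, adjusted p = 1e-06) and -0.21 without (SE 0.05, adjusted p = 0.00554). Irgm1 had -1.02 with DOX (adjusted p = 1.75e-05) and -0.54 without (adjusted p = 0.00521). For Ddx58 the fall passed the test with DOX (-0.69, SE 0.09, adjusted p = 1.6e-05) and had -0.23 without DOX (adjusted p = 0.0715, and 0.0063 with the replicate block).

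The largest passage effects with DOX were those of Ifit3 (-1.85), Gbp2 (-1.61), Iigp1 (-1.47) and Oas2 (-1.39), all called lower. Not called were Oas3, Mx1, Mx2, Gbp7, Usp18, Trim25, Isg20 and Samd9l. Of these, Oas3 (adjusted p = 0.00593), Gbp7 (1.27e-05), Trim25 (0.00186) and Samd9l (0.014) were called lower with the replicate number as a block. Oasl1 was again apart: its mean was 165 ± 7.53 CPM at passage 7, against 101 ± 9.03 CPM at passage 4 with DOX, and 80.8 ± 4.71 CPM against 43.0 ± 2.98 CPM without DOX (SD, n = 4 each). The log2 fold changes were 0.71 (SE 0.07, adjusted p = 3.88e-07) and 0.91 (SE 0.07, adjusted p = 7.34e-08).

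**Figure D3:**
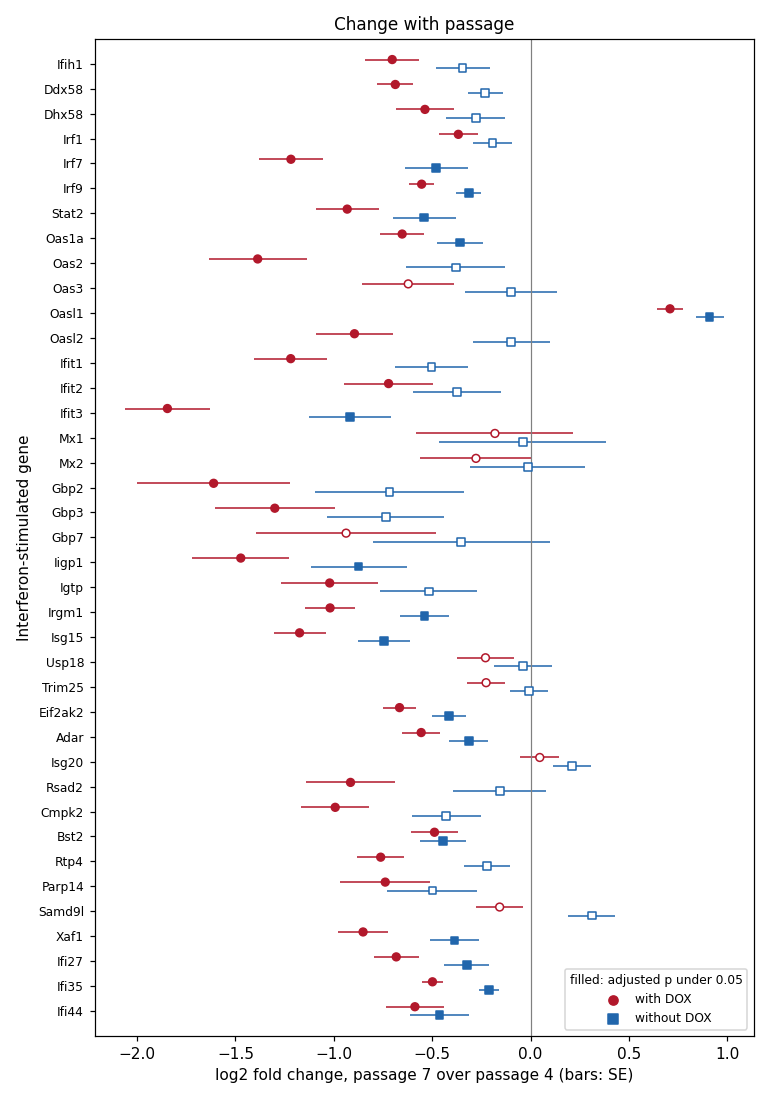
Log2 fold change of passage 7 over passage 4 for each member, with DOX (circles) and without DOX (squares), with bars of 1 SE on each side and filled symbols for an adjusted p under 0.05. There are 30 members called lower with DOX and 15 without, while Oasl1 lies to the right in both.

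**Figure D4:**
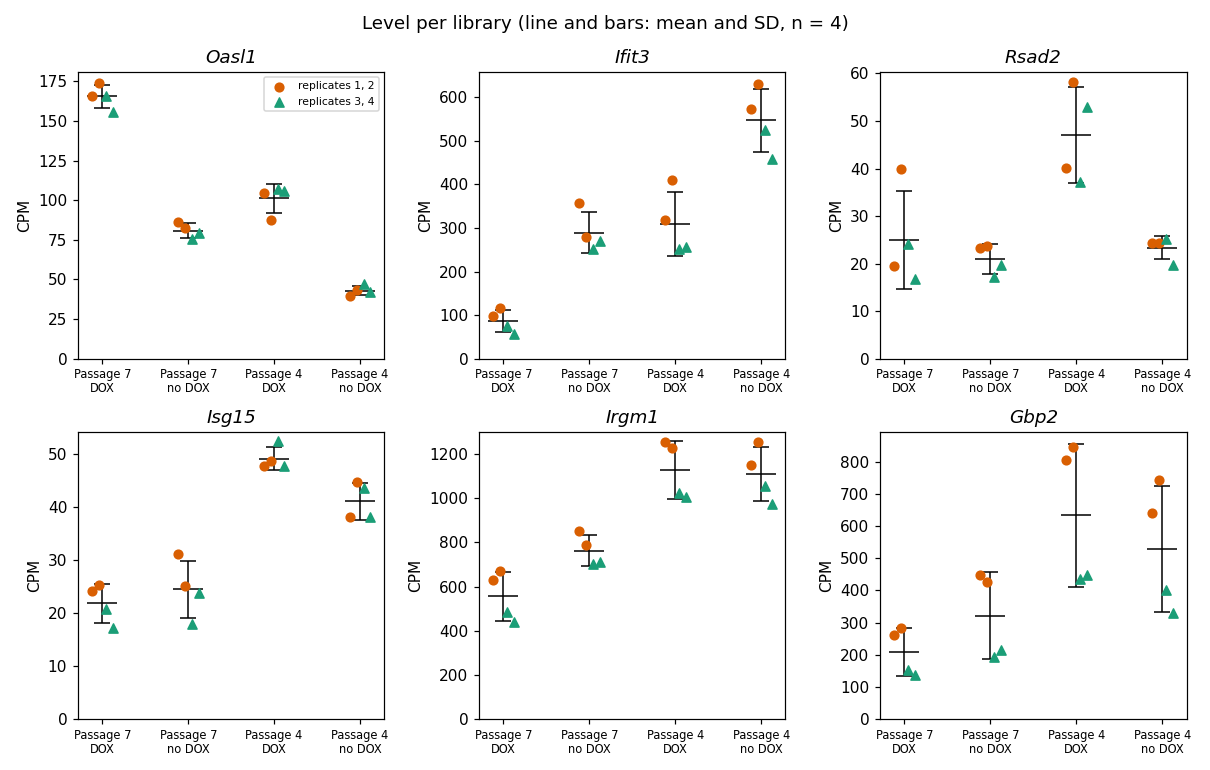
CPM of Oasl1, Ifit3, Rsad2, Isg15, Irgm1 and Gbp2 in every library by group, 1 point a library, circles for replicates 1 and 2 and triangles for 3 and 4, with a line at each group mean and bars of 1 SD. The mean of Oasl1 is highest at passage 7 with DOX and those of Ifit3, Isg15, Irgm1 and Gbp2 are lowest there, and the points of Gbp2 split by replicate set within each group.

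With the group held constant, 22 of the 39 members were lower in replicates 3 and 4 than in replicates 1 and 2 (56.4%, against 19.5% of all tested genes) and 0 were higher (against 17.5%). No member was called higher by DESeq2 or limma-voom either, and 0 members were higher at an unadjusted p under 0.05. The median difference was -0.234, against -4.43e-05 over all tested genes. The split into replicate sets was known from earlier results of these data, so its p-values are not those of a contrast chosen blind. For 15 members both libraries of replicates 3 and 4 lay below both of replicates 1 and 2 in all 4 groups, against 8.75% of all tested genes, and for 0 they lay above, against 6.1%. Tested on each passage alone, an analysis added after the data were seen, 27 members were lower at passage 7, against 15.7% of all tested genes, and 15 at passage 4, against 14%.

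Of the 8 GTPases, 6 were lower in replicates 3 and 4, with a median of -0.612 over the 8, while Mx1 had 0.28 and Mx2 0.26 and did not pass the test. All 3 Ifit genes were lower, with a median of -0.437. Gbp2, whose libraries are given above, averaged 289 CPM in replicates 3 and 4, against 557 CPM in replicates 1 and 2, a difference of -0.96 (SE 0.04, adjusted p = 3.88e-13). Gbp7 of the same cluster had 34.4, 32.3, 38.9, 46.0, 69.7, 73.9, 73.8 and 67.8 CPM in replicates 3 and 4 of the 4 groups in the order passage 7 DOX, passage 7 without DOX, passage 4 DOX and passage 4 without DOX, against 72.6, 86.5, 122, 109, 136, 149, 128 and 136 CPM in replicates 1 and 2. No library of replicates 3 and 4 reached one of replicates 1 and 2 in its own group. Its difference was -1.14 (SE 0.07, adjusted p = 1.27e-08).

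Iigp1, a GTPase that loads onto pathogen vacuoles, had 252, 239, 402, 405, 749, 744, 779 and 705 CPM in replicates 3 and 4 in the same order of groups, against 391, 427, 635, 589, 1077, 1060.4, 1067 and 1171 CPM in replicates 1 and 2. Igtp had 229, 199, 318, 297, 462, 439, 460.2 and 398 CPM in replicates 3 and 4, against 318, 363, 468, 445, 661, 686, 629 and 703 CPM in replicates 1 and 2. Both genes were lower in replicates 3 and 4 of every group. The differences were -0.61 for Iigp1 (SE 0.04, adjusted p = 1.71e-12) and -0.61 for Igtp (SE 0.04, adjusted p = 1.18e-11). Igtp overlaps Irgm2 on the same strand, and Irgm2 had -0.61 as well, so reads of this pair may not be separable.

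Ifit2 had 57.4, 51.4, 91.0, 102, 86.6, 97.6, 131 and 122 CPM in replicates 3 and 4, against 80.0, 86.7, 152, 128, 123, 145, 168 and 192 CPM in replicates 1 and 2. Samd9l, a restriction factor for poxviruses and a growth suppressor, had 332, 344, 384, 387, 361, 362, 311 and 291 CPM in replicates 3 and 4, against 408, 423, 477, 427, 468, 489.6, 362 and 386 CPM in replicates 1 and 2. Both genes had both libraries of replicates 3 and 4 below those of replicates 1 and 2 in every group. The differences were -0.55 for Ifit2 (SE 0.05, adjusted p = 3.1e-09) and -0.31 for Samd9l (SE 0.03, adjusted p = 3.34e-08). Not every member took part: Oasl1 had 0.00 (SE 0.04), Irf9 -0.02 (SE 0.04) and Ifi35 -0.03 (SE 0.04), none of which passed the test.

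**Figure D5:**
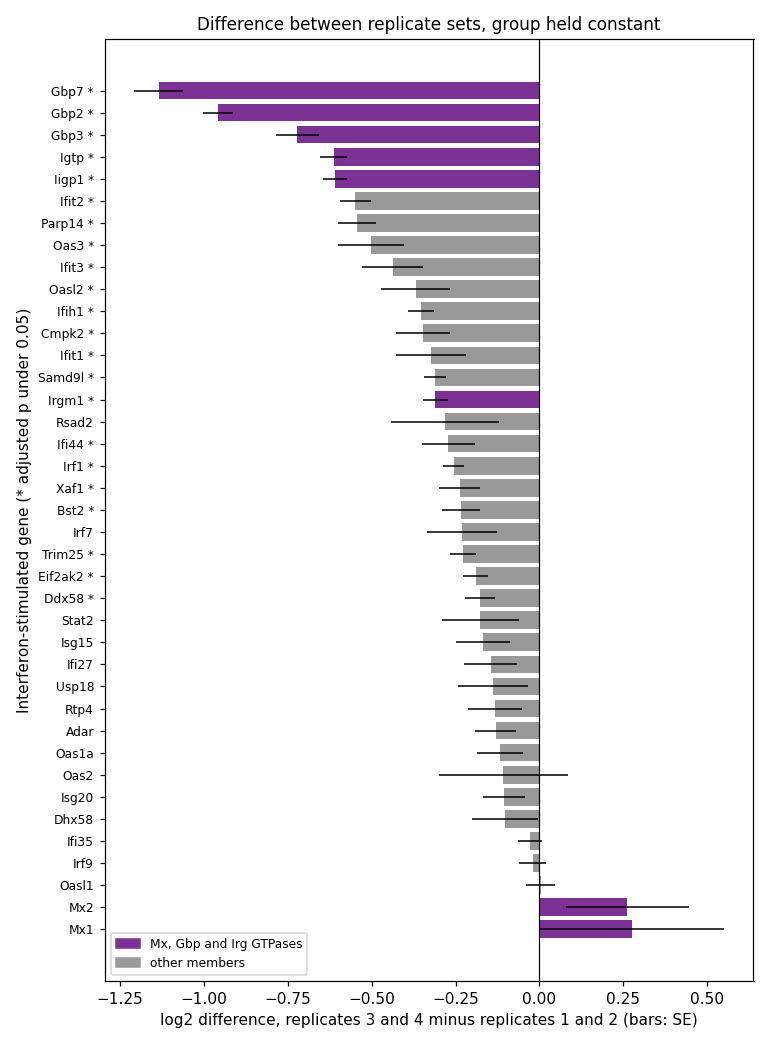
Log2 difference between replicates 3 and 4 and replicates 1 and 2, group held constant, for each member, as bars with 1 SE on each side and a star for an adjusted p under 0.05. The GTPases Gbp7, Gbp2, Gbp3, Igtp and Iigp1 have the lowest values, from -1.14 to -0.61.

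The DOX response did not differ detectably between the replicate sets for any member: edgeR called 0, against 0.783% of all tested genes higher and 0.77% lower, with 1 higher and 4 lower at an unadjusted p under 0.05 and a smallest adjusted p of 0.0949. DESeq2 and limma-voom called 0 as well.

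Of 44 pathway genes listed, 35 could be tested; the 8 ligands and the nuclease Trex1 had too few counts. At passage 7, 3 of the 35 were higher with DOX (8.57%, against 11.1% of all tested genes) and 6 lower (17.1%, against 11.6%). At passage 4, 1 was higher (2.86%, against 8.45%) and 4 lower (11.4%, against 9.1%). The endosomal RNA sensor Tlr3 was lower with DOX at both passages (-0.47 at passage 7, adjusted p = 0.000445, and -0.46 at passage 4, adjusted p = 0.00061). The receptor kinase Jak2 was higher (0.34 at passage 7, adjusted p = 0.00186, and 0.36 at passage 4, adjusted p = 0.00124). The receptor subunits Ifnar1 (-0.20 at passage 7 and -0.16 at passage 4) and Ifngr1 (-0.21 and -0.24) and the phosphatase Ptpn6 (-0.23 and -0.26) were lower at both. At passage 7 the cytokine-signalling inhibitor Socs3 (-0.74, adjusted p = 0.000863) and the Tlr3 adaptor Ticam1 (-0.53, adjusted p = 0.00362) were also lower.

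With passage, 12 of the 35 pathway genes were lower with DOX (34.3%, against 15.8% of all tested genes) and 6 higher (17.1%, against 18.3%). Without DOX, 7 were lower (20.0%, against 11.3%) and 5 higher (14.3%, against 14.3%). The DNA-sensing adaptor Tmem173 (STING) was lower at passage 7 (-0.53 with DOX, adjusted p = 3.19e-05, and -0.36 without, adjusted p = 0.00185), as was the kinase Jak1 (-0.33 and -0.23, adjusted p = 4.52e-05 and 0.00201). The phosphatase Ptpn11 (0.25 with DOX and 0.22 without) and the receptor subunit Ifngr2 (0.29 and 0.25) were higher at passage 7 in both comparisons. Between replicate sets, 12 pathway genes were lower in replicates 3 and 4 (34.3%, against 19.5% of all tested genes) and 2 higher (5.71%, against 17.5%). Samhd1, which depletes the cell's nucleotides, had a log2 difference of -0.27 (adjusted p = 4.74e-07) and the nucleic acid sensor Zbp1 one of -0.59 (adjusted p = 8.79e-05).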

How the data were processed

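Poly(A) RNA of 16 libraries was sequenced as paired reads with a kit that marks strand and aligned to GRCm38.p6 with STAR 2.6.0c, per the labels' protocols. The authors deposited whole-number counts per Ensembl gene, which were used, and TPM values. The counting tool, annotation and strand setting are not given in the sources used here. Among the deposited TPM columns, 12 of 16 correlated best with a count column of another group over 12237 genes (lowest best r 0.991, highest next r 0.832), so TPM served only as an alternative (limma on log2(TPM + 1), genes at 1 TPM or more in at least 4 libraries).

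Symbols came from GENCODE M21, which matched all 55536 identifiers. The members, pathway genes, markers and the split into replicate sets were chosen with earlier results of these data known. Counts were fitted with edgeR 4.0.16 in R 4.3.3 (filterByExpr, TMM, robust quasi-likelihood, 4 group means, 12 residual degrees of freedom), with Benjamini-Hochberg adjustment across the 15316 tested genes and a threshold of 0.05. The replicate-set comparison added the set to the groups (11 degrees of freedom), and its interaction with DOX used 8 means (8 degrees of freedom). In all, 7 comparisons were made. Levels are TMM-scaled CPM, and SE is the absolute log2 fold change over the square root of F. Alternatives were DESeq2 1.42.0, limma 3.58.1 (voom), DESeq2 size factors, no filter, a replicate block, the set as a term, each replicate set alone and each library left out. The script was tested on simulated data.

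Total counts ran from 9937504 to 17188295 a library, and the biological coefficient of variation was 10% around group means and 6.05% with the set as a term. Libraries with the same replicate number deviated together from their group means in every pair of groups (r 0.222 to 0.458), as did libraries of the same set with different numbers (0.226 to 0.500), whereas libraries of different sets had -0.442 to -0.219. The range for a shared number was no higher than that for a shared set with different numbers. These values therefore showed the replicate sets, but no pairing by number beyond them. The replicate block still treated the numbers as pairing the libraries, which neither these values nor the labels establish. Fits with only the set as a term are given as an alternative. Named members were, for each comparison, up to 6 of those called with the smallest adjusted p, and named pathway genes up to 4, of which not every one is reported here; other members are named within counts or by class, and the copies Ifit3b, Oas1g and Irgm2 were added after values were seen.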

Additional observations from a re-analysis of the deposited data

Results flagged for a closer look

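Oasl1 in passage 4 DOX replicate 2 had 87.8 CPM, far from the other 3 libraries of its group, with a gap of 0.879 of the group's range. Rsad2 in passage 4 replicate 4 without DOX had 19.7 CPM, with a gap of 0.832 of the range. Over 18 members 72 groups of 4 were examined, and chance alone marks about 1 group in 20.

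With the replicate number as a block, 13 members had a lower DOX response at passage 7 than at passage 4, while the fit without the block called 0 (edgeR, adjusted p under 0.05). Irf8, a transcription factor of the pathway list, had a DOX response that differed between replicates 3 and 4 and replicates 1 and 2 by a log2 value of 0.46 (SE 0.12, adjusted p = 0.0374). The mitochondrial RNA-signalling adaptor Mavs differed by -0.24 (SE 0.06, adjusted p = 0.0439). Pkd2 itself differed by 0.28 (SE 0.06, adjusted p = 0.0152), so that its fall with DOX was smaller in replicates 3 and 4.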

How the results depend on the processing

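No named member's result changed sign under the alternatives in which it was recomputed. The TPM columns were not among these alternatives. Members outside the named results were compared by counts of signs only. With passage without DOX, 36 members had a negative change in the main fit, against 30 in replicates 1 and 2 alone. The difference of DOX response between passages was negative for 39 members in the main fit, against 38 in each replicate set alone. Of 228 values of single named members under the alternatives that kept all groups' replicates or a whole set, 220 stayed on the same side of the threshold; Rsad2 at passage 4 lost its call in replicates 1 and 2 alone (adjusted p = 0.145) and 3 and 4 alone (0.0574), Rtp4 at passage 7 likewise (0.0677 and 0.0823), Ifi35 at passage 7 without the filter (0.117) and in replicates 1 and 2 alone (0.125), and Oasl2 at passage 4 (0.0774) and Irgm1 at passage 7 (0.0746) without the filter. Counts of members moved as follows. With the replicate block, the counts were 10 higher and 3 lower for DOX at passage 4, 16 lower for DOX at passage 7, 13 lower for the difference between passages, and 3 higher and 26 lower for passage without DOX; no call on a named member was lost with it. With the set as a term they were 11 and 3, 17, 15, and 2 and 26. In replicates 3 and 4 alone they were 12 and 3 at passage 4, 2 higher and 15 lower at passage 7, 14 for the difference, and 3 and 29 for passage without DOX. In replicates 1 and 2 alone, 2 were lower with DOX at passage 4, 9 lower for the difference and 2 higher for passage without DOX. DESeq2 gave 8 higher at passage 4, 3 lower for the difference and 2 higher for passage without DOX. With no filter, 3 were lower with DOX at passage 7 and 1 lower for the difference of DOX response between replicate sets. Taken under their deposited headings, the TPM columns gave 0 higher with DOX at passage 4 and 0 higher and 2 lower at passage 7. They gave 0 lower with passage without DOX and 1 lower with passage with DOX. By the count columns they followed, these TPM comparisons of DOX held libraries of one treatment, and those of passage set DOX against no DOX. They therefore could not test the results given here. Leaving out each library in turn gave 3 to 6 higher and 1 lower with DOX at passage 4, 4 to 10 lower at passage 7, 0 to 1 lower for the difference between passages, 1 to 2 higher and 7 to 18 lower for passage without DOX, 28 to 32 lower for passage with DOX, 21 to 24 lower for the replicate sets and 0 to 1 lower for the DOX response between sets. The cause of these movements was not tested. Depth limited Mx1 and Mx2.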
